A study of Mus musculus with 6 samples.

Results

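The small leucine-rich proteoglycans are secreted matrix proteins, and 8 of their genes were examined here: *Dcn*, *Bgn*, *Aspn*, *Lum*, *Fmod*, *Prelp*, *Omd* and *Ogn*. They were chosen by name, but with earlier results of these data known, as were the gene lists used below. Each of the 8 had a row among the 18152 genes of the expression table. The tissue was the inner enamel epithelium (IEE) of the mandibular first molar, cut by laser capture microdissection from frozen head sections of mouse embryos at E18.5. The 3 control libraries came from *Kdf1* fl/fl embryos, which the sample labels call wild type. The other 3, called cKO here, came from embryos with the same floxed allele plus *K14-Cre*, on a C57BL/6J background. The keratin 14 promoter drives Cre in epithelium, so that *Kdf1* is not targeted in the dental mesenchyme of either group, and no library came from an embryo with Cre alone.

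Proteins of this family consist of a row of leucine-rich repeats, and most of them carry chains of chondroitin, dermatan or keratan sulfate. They bind to collagen fibrils, regulate how wide the fibrils grow, and hold growth factors such as TGF-beta in the matrix. In teeth they are known mainly as products of mesenchymal cells, in the papilla, the follicle around the tooth germ, predentin and bone, whereas the IEE is the epithelial layer that becomes the ameloblasts.

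Library totals were 14713918 to 16675133 estimated counts, and 14131 genes were tested after genes with low counts were removed. *Kdf1* was at 49.8 ± 4.82 CPM (counts scaled to the size of the library; SD, n = 3) in controls and at 0.0210 ± 0.0363 CPM in cKO embryos. Each of 12 dental epithelial markers was detected, *Krt5*, *Amelx* and *Krt17* at the highest levels, and their summed level was 14922 to 29604 CPM in control and 6309 to 10459 CPM in cKO libraries. Genes listed here as markers of other tissues were detected as well, and which cells their transcripts came from was not measured. *Dspp*, *Vim* and *Tnc* were the highest of the dental papilla list, which summed to 1692 to 4948 and 2292 to 2690 CPM in the same order. In bulk tissue, fewer cells of a type and less RNA per cell cannot be told apart.

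Transcript levels of the family are compared between genes as TPM, which is scaled by transcript length. *Lum*, *Dcn* and *Bgn* were the most abundant members in controls, with means of 375 ± 354, 291 ± 230 and 284 ± 151 TPM (SD, n = 3). The neighbours in this order did not differ beyond their spread. *Omd* had 57.0 ± 68.6 TPM, *Fmod* 23.7 ± 2.33, *Ogn* 14.5 ± 5.90, *Aspn* 5.90 ± 1.42 and *Prelp* 1.68 ± 0.277 TPM. In cKO embryos the order was *Lum* (665 ± 388 TPM), *Bgn* (528 ± 160), *Dcn* (284 ± 54.2), *Ogn* (155 ± 161), *Omd* (115 ± 57.5), *Aspn* (45.1 ± 46.8), *Fmod* (35.5 ± 5.02) and *Prelp* (1.29 ± 0.602). *Ogn* thus moved from sixth to the fourth place, and by mean TPM from position 7921 to 976 among the genes of the table.

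All 8 members together took 483, 1959.55 and 715 TPM in replicates 1, 2 and 3 of the controls. In the cKO group they took 1904, 2329 and 1253 TPM. Replicate 2 of the controls was the exception among the controls, since its sum exceeded those of replicates 1 and 3 of the cKO group.

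**Figure D1:**
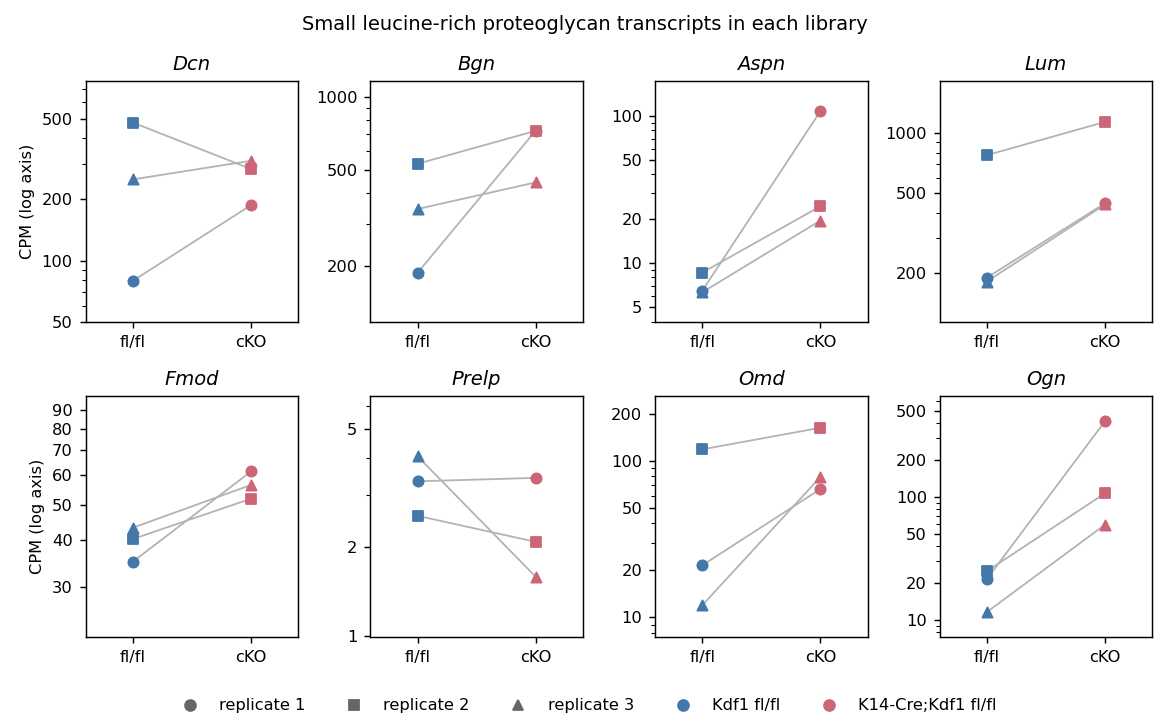
Level of each member in CPM (log axis) in the 6 libraries, with controls (fl/fl, blue) on the left and cKO (red) on the right of each panel. Symbols stand for the replicate number and grey lines join libraries of the same number. The groups do not overlap for *Aspn*, *Fmod* and *Ogn*, and *Lum* and *Omd* are highest in replicate 2 of both groups.

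The criterion used here takes the study's thresholds, a log2 difference of 1 or more in either direction and an adjusted p no higher than 0.05. The study does not name the test behind its own gene list, so the calls given here need not match that list. No member passed the criterion in edgeR's quasi-likelihood test, which called 0.432% of all genes tested, 0.142% as higher and 0.290% as lower in cKO embryos. At an unadjusted p of at most 0.05, 3 of 8 members (*Ogn*, *Aspn*, *Fmod*) were higher in cKO embryos and none was lower, where 13.0% of all genes were higher. The same 3 members had groups that did not overlap, all higher, where 30.7% of all genes had such groups, 14.5% higher and 16.2% lower. A log2 ratio of at least 1 was seen for *Ogn*, *Aspn* and *Omd*, against 9.23% of all genes. Over the family, 6 of 8 log2 ratios (cKO over control) were above 0, against 49.5% of all genes, and their median was 0.83, against −0.004 for all genes tested. The median was 1.55 without replicate 2 of the controls and 0.51 without replicate 1 of the controls. Shares over all genes are set beside the members as a description only, since the members were chosen with earlier results known.

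Other fits of the same counts called members that the first fit did not. DESeq2 put *Ogn* and *Aspn* past the criterion, which 5.05% of all genes passed as higher. With the replicate number as a block, edgeR put *Ogn* and *Lum* past it, against 4.16% of all genes as higher. That fit called 860 genes in all, against 61 without the block. The labels state no pairs, and the block was chosen from these data. Deviations from the group means correlated at 0.135, 0.324 and 0.499 for pairs 1, 2 and 3, but at 0.144 for control replicate 2 with cKO replicate 1. Without replicate 3 of the cKO group, *Ogn* and *Aspn* passed, against 2.29% of all genes as higher in that fit, which called 465 genes of 14391 in all. limma on log2(TPM + 1) or log2(TPM + 0.1) called no member.

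**Figure D2:**
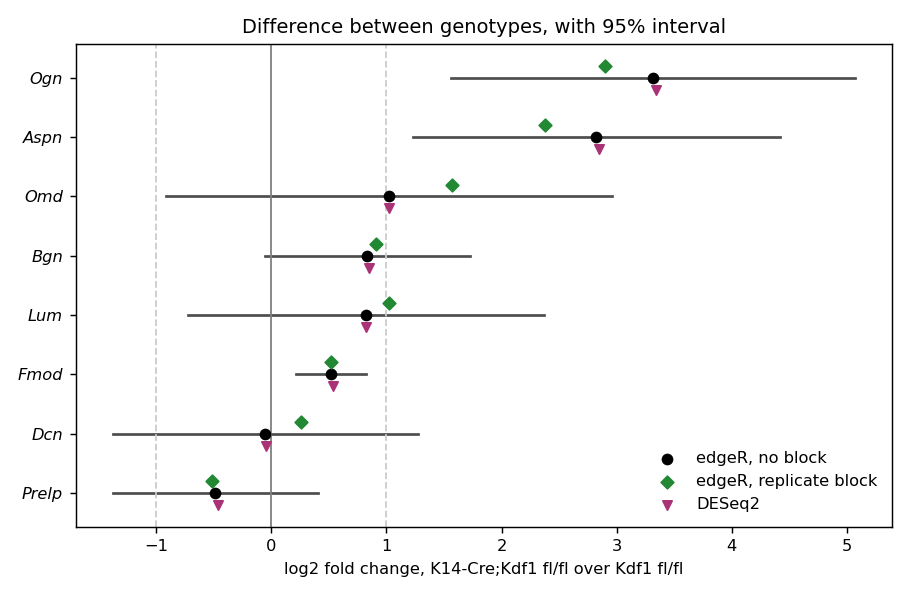
The log2 ratio of each member, cKO over control. Black points and bars give edgeR's estimate and its 95% interval, green diamonds edgeR with the replicate block, and purple triangles DESeq2, with dashed lines at 1 and −1. The intervals of *Ogn*, *Aspn* and *Fmod* lie above 0, and those of *Bgn*, *Lum*, *Omd*, *Dcn* and *Prelp* include it.

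*Dcn* (gene identifier 13179) encodes decorin, which carries 1 chain of chondroitin or dermatan sulfate and coats collagen fibrils. It was at 79.5, 478 and 251 CPM in the control libraries and at 188, 282 and 310 CPM in the cKO libraries, in the order of replicates 1, 2 and 3. Both the lowest and the highest value were in controls, which spread 6.01-fold. Its log2 ratio was −0.05 (SE 0.56, 95% interval −1.38 to 1.27, adjusted p = 0.967 in edgeR's test with Benjamini-Hochberg adjustment). Its sign was not stable, since it was 0.26 with the block, 0.65 without replicate 2 of the controls and 0.32 with limma on log2(TPM + 1).

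*Bgn* (12111) encodes biglycan, the close relative of decorin that is abundant in bone and dentin. It was at 188, 530 and 345 CPM in controls and at 727, 725 and 444 CPM in cKO embryos. The groups overlapped, since replicate 2 of the controls exceeded replicate 3 of the other group, although each cKO library was above the control of the same number. The log2 ratio was 0.84 (SE 0.38, 95% interval −0.05 to 1.73, adjusted p = 0.224 in the same test of edgeR).

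*Lum* (17022) encodes lumican, a keratan sulfate proteoglycan best known for the collagen spacing of the cornea. It was at 190, 776 and 181 CPM in controls and at 447, 1139 and 440.2 CPM in cKO embryos. Replicate 2 was the highest library of each group, and replicates 1 and 3 of a group were nearly equal. Without the block the log2 ratio was 0.82 (SE 0.66, 95% interval −0.73 to 2.37, adjusted p = 0.475 in edgeR's test). Within same-numbered pairs the differences were 1.24, 0.55 and 1.28 on the log2 scale, each toward cKO embryos, and with the block the log2 ratio was 1.02 (SE 0.19, adjusted p = 0.0241 in edgeR). The value was 1.86 without replicate 2 of the controls and 0.23 without replicate 2 of the cKO group.

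*Fmod* (14264) encodes fibromodulin, which acts on the same collagen site as lumican in tendon. It was at 35.0, 40.3 and 43.3 CPM in controls and at 61.4, 51.9 and 56.5 CPM in cKO embryos. The difference was small, but the groups were tight and did not overlap. Its coefficient of variation was 10.6% and 8.48% in the groups, and was the lowest of the family in both. The log2 ratio was 0.52 (SE 0.13, 95% interval 0.21 to 0.82) with an adjusted p of 0.0842 in edgeR and 0.0175 in DESeq2, and the interval lies under the fold change that the criterion asks for.

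*Prelp* (116847) encodes a basic family member that binds heparan sulfate in basement membranes. It was at 3.33, 2.54 and 4.04 CPM in controls and at 3.42, 2.08 and 1.58 CPM in cKO embryos, from 24 to 64 counts per library. It was the one member with a negative log2 ratio in all fits run, −0.48 (SE 0.38, 95% interval −1.38 to 0.41, adjusted p = 0.466 in edgeR), and its groups overlapped. The value was −0.83 without replicate 1 and −0.24 without replicate 3 of the cKO group. In the GENCODE M21 annotation, 350 of its 3615 exon bases overlap an antisense transcript, and whether strand was used in counting is not stated.

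*Aspn*, *Omd* and *Ogn* follow each other on mouse chromosome 13, after the related gene *Ecm2*, and all lie within the span of *Cenpp* on the opposite strand. *Aspn* shares 7 of its 2354 exon bases with *Cenpp*, and *Omd* and *Ogn* share 0. *Dcn* and *Lum* are neighbours on chromosome 10, and *Prelp* and *Fmod* on chromosome 1. The 250 bases before the start of the 3 genes on chromosome 13 are shown because *Omd* had another order over the libraries than its neighbours *Aspn* and *Ogn*. They are from RefSeq (GRCm38.p6, plus strand) and are written 5′ to 3′, and capitals mark the E-box CANNTG, which is bound by basic helix-loop-helix factors.
*Aspn*, chr13:49544193-49544442: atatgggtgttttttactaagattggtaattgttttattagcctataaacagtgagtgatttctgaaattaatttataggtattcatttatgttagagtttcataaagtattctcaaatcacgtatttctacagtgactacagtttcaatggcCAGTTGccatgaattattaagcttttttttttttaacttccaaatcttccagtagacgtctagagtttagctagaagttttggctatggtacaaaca
*Omd*, chr13:49582212-49582461: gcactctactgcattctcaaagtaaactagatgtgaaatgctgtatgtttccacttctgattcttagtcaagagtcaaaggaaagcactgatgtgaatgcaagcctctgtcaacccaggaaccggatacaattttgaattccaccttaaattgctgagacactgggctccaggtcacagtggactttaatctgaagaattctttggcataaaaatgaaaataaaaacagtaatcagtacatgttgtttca
*Ogn*, chr13:49607765-49608014: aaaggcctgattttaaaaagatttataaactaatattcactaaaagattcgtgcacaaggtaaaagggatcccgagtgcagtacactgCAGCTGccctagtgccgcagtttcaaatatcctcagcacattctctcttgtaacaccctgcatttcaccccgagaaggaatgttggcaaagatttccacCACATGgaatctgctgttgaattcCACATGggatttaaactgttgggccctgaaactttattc

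The window of *Ogn* holds 3 E-boxes, at 162, 63 and 39 bases before the start, that of *Aspn* holds 1, at 97 bases, and that of *Omd* holds 0. Those of *Bgn* and *Fmod* hold 1 each and that of *Prelp* holds 0, so that 4 of 6 member windows hold an E-box. Over 32851 promoter windows of the same length, 66.2% hold at least 1. The sequence TATAAA, searched on both strands like the others, is found 2 times each before *Ogn* and *Aspn* but far from the start, at 229 and 227 and at 207 and 178 bases, and it is in 12.4% of all windows. The matches before *Ogn* overlap, as the same stretch read on opposite strands, and those before *Aspn* are separate. The AP-1 sequence TGANTCA (6.75% of all windows) is in none of the 6 member windows in the table, and GGAATG, the sequence of TEAD factors (12.6%), is in that of *Ogn* alone. These are matches of letters, and no binding was measured.

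*Aspn* (66695) encodes asporin, which has a run of aspartates in place of an attached sugar chain and binds TGF-beta. It was at 6.47, 8.60 and 6.32 CPM in controls and at 108, 24.3 and 19.4 CPM in cKO embryos. The controls lay close together, and every library of the other group was above them, replicate 1 by far the most. The estimated log2 ratio was 2.82 (SE 0.68, 95% interval 1.23 to 4.42) with an adjusted p of 0.0813 in edgeR's test. DESeq2 gave 2.85 with an adjusted p of 7.80e-05, and the block in edgeR gave 2.38 with an adjusted p of 0.0520. Without replicate 1 of the cKO group the log2 ratio was 1.63. The estimated count was not a whole number in 4 of the 6 libraries, and was whole in all 6 for each other member.

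*Ogn* (18295), the last gene of the row, encodes osteoglycin or mimecan, a keratan sulfate proteoglycan first described in bone. It was at 21.5, 25.0 and 11.6 CPM in controls and at 413, 107 and 59.7 CPM in cKO embryos. Every cKO library was above every control, and replicate 1 was again the highest. Its log2 ratio of 3.32 (SE 0.74, 95% interval 1.56 to 5.07) was the largest of the 8 members and ranked 84 from the top among 14131 genes. The adjusted p was 0.0734 in edgeR's test, 0.00342 in DESeq2 and 0.0215 with the block in edgeR, where the log2 ratio was 2.90 (SE 0.45). Without replicate 1 of the cKO group it was 2.12.

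*Omd* (27047) encodes osteomodulin or osteoadherin, which binds hydroxyapatite and is made by osteoblasts and odontoblasts. It was at 21.5, 119 and 11.9 CPM in controls and at 66.4, 164 and 79.4 CPM in cKO embryos. As with *Lum*, replicate 2 was highest in each group and each cKO library was above the control of its number, while the groups overlapped through replicate 2 of the controls. Without the block its log2 ratio was 1.02 (SE 0.82, 95% interval −0.92 to 2.96, adjusted p = 0.477 in edgeR), or 1.57 (SE 0.42, adjusted p = 0.0731 in edgeR) with the block. It was 2.62 without replicate 2 of the controls and 0.53 without replicate 2 of the other group.

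The members therefore followed at least 2 orders over the libraries. *Aspn* and *Ogn* had the same order in all 6, with replicates 1, 2 and 3 of cKO embryos above replicates 2, 1 and 3 of the controls. *Lum* and *Omd* had replicate 2 of cKO embryos first and replicate 2 of the controls next. Inside a library, the ratio of *Aspn* to *Ogn* in TPM stayed between 0.253 and 0.607. That of *Omd* to *Ogn* was 1.45, 6.97 and 1.499 in controls and 0.235, 2.23 and 1.94 in cKO embryos, so that the groups overlapped. In 6 of 8 members all 3 same-numbered pairs were higher in cKO embryos, where 25.7% of all genes were, and *Dcn* and *Prelp* were the exceptions with 2 and 1 pairs higher.

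**Figure D3:**
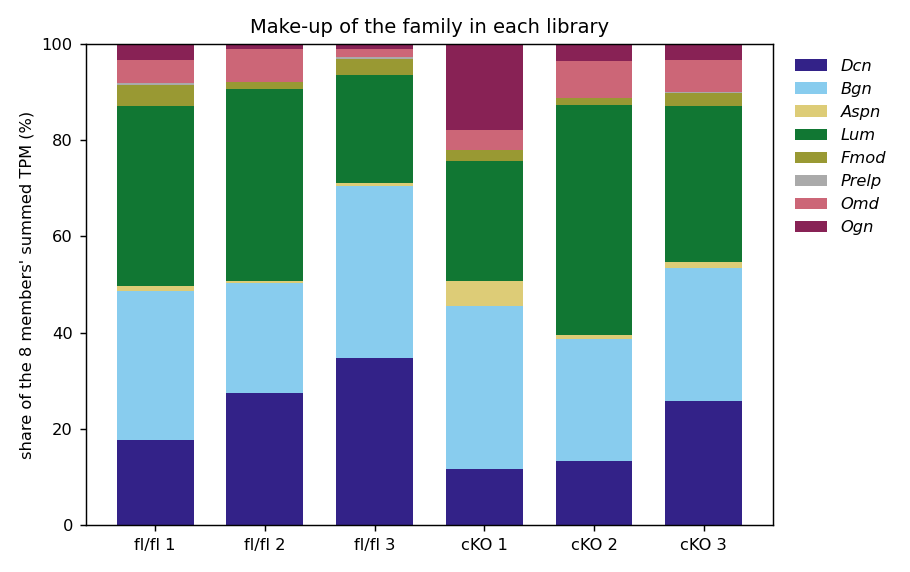
Share of each member in the family's summed TPM, in percent, as stacked bars for the 3 control (fl/fl) and the 3 cKO libraries. *Ogn* takes 17.8% in replicate 1 of the cKO group and 0.996% to 3.48% in the other libraries, and *Lum*, *Dcn* and *Bgn* together make up the most of each bar.

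As shares of the family's TPM, *Lum*, *Dcn* and *Bgn* had 33.3 ± 9.47%, 26.6 ± 8.62% and 29.9 ± 6.53% in controls (SD, n = 3). In cKO embryos the shares were 35.1 ± 11.6%, 16.9 ± 7.71% and 29.0 ± 4.41%, within the spread of the controls for *Lum* and *Bgn*. The share of *Dcn* was 17.6%, 27.5% and 34.7% in the controls and 11.7%, 13.2% and 25.7% in the other group, and the groups overlapped. The spread within groups was large for the family. The coefficient of variation of *Omd*, *Lum* and *Dcn* in controls was 117%, 89.2% and 74.1%, and that of *Ogn* and *Aspn* in cKO embryos was 99.2% and 98.4%, where the median gene had 11.7% and 18.6% in the same groups.

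**Figure D4:**
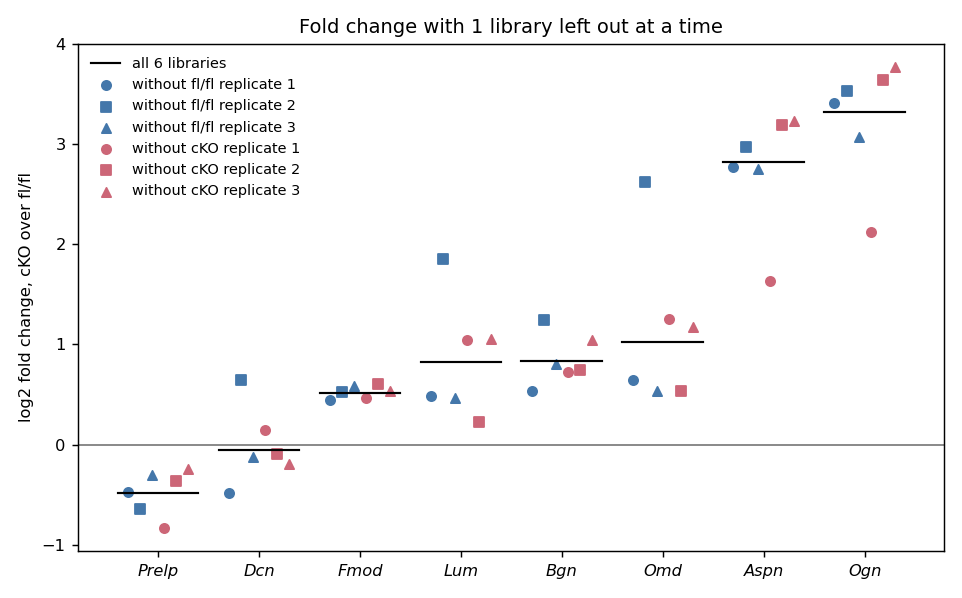
The log2 ratio of each member, cKO over control, in edgeR with all 6 libraries (black line) and with 1 library left out (symbols, blue for control and red for cKO libraries). *Ogn* and *Aspn* are lowest without replicate 1 of the cKO group, at 2.12 and 1.63, and *Omd*, *Lum* and *Dcn* are highest without replicate 2 of the controls, at 2.62, 1.86 and 0.65.

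Of 58 genes tested from the marker lists of other tissues, 49 were higher and 9 lower on average in cKO embryos, and 1 passed the criterion in edgeR. Over all genes tested, 49.5% were higher on average and 0.432% passed. In the fibroblast and dental follicle list, 7 of 12 genes were tested and all 7 were higher on average in cKO embryos, with *Fn1*, *Postn* and *Pdgfra* the most abundant. The list summed to 531, 1065 and 462 CPM in control and to 3197, 2054 and 898 CPM in cKO libraries. The order of these sums is close to that of *Ogn* and *Aspn*, with replicate 1 of cKO embryos first, apart from replicate 2 of the controls, which was above replicate 3 of the other group. The untested genes of the list were at low levels. Of these, *Dpt*, a fibroblast marker, stayed at 0 to 0.253 CPM. *Mfap5*, *Tbx18*, *Pi16* and *Meox2* had means of 0.165, 0.270, 0.226 and 0.517 CPM in controls. In cKO embryos their means were 0.810, 0.340, 0.614 and 1.21 CPM. Each of them was highest in cKO replicate 1, at 1.58, 0.506, 1.33 and 2.47 CPM, whereas *Dpt* was highest in control replicate 3. *Postn*, which encodes the follicle protein periostin, was at 46.4 ± 11.1 CPM in controls and at 396 ± 319 CPM in the other group, a log2 ratio of 3.09 with an adjusted p of 0.0674 in edgeR.

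The median log2 ratio was 1.499 for the fibroblast and follicle list, 1.48 for the papilla list (10 of 13 higher) and 0.06 for the osteoblast list (4 of 8 higher). It was 1.37 for immune cells, 0.93 for endothelium (8 of 8 higher each), 0.91 for pericytes and smooth muscle (7 of 8), 1.28 for skeletal muscle (3 of 3) and 1.30 for cartilage (2 of 3). Summed levels ran from 30.1 to 61.7 and 50.6 to 194 CPM for immune cells, and from 289 to 363 and 329 to 965 CPM for endothelium, in control and cKO libraries. They ran from 1077 to 1573 and 973 to 1290.1 CPM for the osteoblast list, from 456 to 537 and 457 to 1293 CPM for pericytes, from 2.00 to 4.27 and 4.22 to 12.7 CPM for skeletal muscle, and from 85.0 to 144 and 68.5 to 227 CPM for cartilage. The dental epithelial list had a median of −0.84, with 11 of 12 genes lower and 1 past the criterion in edgeR (*Cdh1*, the gene of E-cadherin). In the papilla list 1 gene passed it as higher (*Twist1*, a mesenchymal transcription factor). Its most abundant gene, *Dspp*, which encodes the dentin protein of odontoblasts, went the other way, from 1968 ± 1502 to 180.4 ± 234 CPM without overlap. The log2 ratio of *Dspp* was −3.45 (adjusted p = 0.152 in edgeR, 0.0484 in DESeq2 and 0.00957 with the block). Both *Dspp* and the epithelial *Amelx* were lowest in cKO replicate 1 and highest in control replicate 3. *Dmp1* and *Nes*, of the papilla list, had log2 ratios of −1.51 and −0.47 with overlap, and *Sox9* of the cartilage list −0.71 without overlap. The osteoblast list held differences in both directions without overlap. *Alpl*, its most abundant gene, went from 849 ± 67.6 to 445 ± 20.2 CPM (log2 ratio −0.93, adjusted p = 0.0498 in edgeR). *Runx2* went from 51.8 ± 11.8 to 160 ± 75.4 CPM (log2 ratio 1.63, adjusted p = 0.0674 in edgeR). Over all genes tested, 30.7% had groups without overlap, 14.5% higher and 16.2% lower in cKO embryos. On average 49.5% of all genes were higher, and 0.142% passed the criterion in edgeR as higher and 0.290% as lower. What part the tissues of these marker lists have in the values of the family was not tested.

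Of 10 further family members, *Podnl1*, which encodes podocan-like 1, had the largest difference, from 0.911 ± 0.504 to 9.81 ± 10.3 CPM. Its log2 ratio was 3.42 (SE 0.85, adjusted p = 0.0842 in edgeR, 0.000289 in DESeq2 and 0.00966 with the block), and its order over the cKO libraries was that of *Ogn*. *Ecm2*, the neighbour of *Aspn*, was at 2.37 ± 0.710 and 5.01 ± 2.47 CPM, and *Tsku*, which encodes the signalling inhibitor tsukushi, at 36.1 ± 7.21 and 32.5 ± 1.09 CPM. In all, 5 of the 10 were tested, 4 higher and 1 lower on average, with a median log2 ratio of 0.34. *Kera*, the next family gene after *Lum*, was at no more than 0.126 CPM in any library.

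Genes that act with the family were read from 7 lists, which include those further members. Of 78 genes tested, none passed the criterion in edgeR, 18 were higher and 6 lower at an unadjusted p of at most 0.05, where 24.5% of all genes were past it and 13.0% higher, and 15 passed in DESeq2 (12 higher, 3 lower), where 6.94% of all genes did. With the block 11 passed (10 higher, 1 lower), where 6.09% of all genes did. Their median log2 ratio was 0.15.

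Among 12 collagen chains that the family binds or borders on, 9 were higher and 3 lower on average, with a median log2 ratio of 0.96. The list summed to 4235 to 21539 CPM in control and 12125 to 16094 CPM in cKO libraries. The 3 lower chains were *Col1a1* and *Col1a2*, the most abundant of the list, and *Col14a1*. Their log2 ratios were −0.46, −0.53 and −0.47, the first 2 with overlap and *Col14a1* without. *Col6a1* and *Col6a2*, chains of the microfibrillar collagen VI to which biglycan and decorin bind, were at 110 ± 57.8 and 126 ± 59.2 CPM in controls and at 414 ± 200 and 419 ± 198 CPM in cKO embryos. Their log2 ratios were 1.91 (SE 0.47) and 1.73 (SE 0.45). Adjusted p values were 0.0842 and 0.0891 in edgeR, and 0.0296 and 0.0304 with the block. *Col2a1* was at 21.9 ± 1.75 and 30.5 ± 1.16 CPM, without overlap. DESeq2 put 5 chains past the criterion, all higher (*Col3a1*, *Col5a2*, *Col6a1*, *Col6a2* and *Col6a3*), and the block put 4 of them past it, without *Col5a2*, where 5.05% and 4.16% of all genes passed as higher.

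The proteases that cut these proteoglycans or trim procollagen had 8 of 10 genes higher on average and a median log2 ratio of 0.38. *Mmp13*, which encodes collagenase 3, was at 16.1 ± 10.4 CPM in controls and at 1325 ± 1491 CPM in cKO embryos, a log2 ratio of 6.36 (SE 1.17, adjusted p = 0.0637 in edgeR and 0.0224 with the block). *Adamts5*, an aggrecanase, was at 6.35 ± 1.85 and 38.9 ± 27.6 CPM, and the gelatinase gene *Mmp2* at 111 ± 78.2 and 422 ± 178 CPM. The groups did not overlap for any of these, and each of them passed the criterion in DESeq2 and with the block. Over all genes, 14.5% had groups without overlap and higher, and 5.05% and 4.16% passed as higher in these fits. The 3 are those of lowest p in the list.

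Of 22 genes for chondroitin and dermatan sulfate assembly, 9 were higher and 13 lower, with a median log2 ratio of −0.09. None passed the criterion in edgeR, in DESeq2 or with the block, where 0.432%, 6.94% and 6.09% of all genes did. *Fam20b*, the kinase that phosphorylates the xylose of the linker, was at 114 ± 4.50 and 72.4 ± 3.95 CPM, a log2 ratio of −0.65 (SE 0.10, adjusted p = 0.0512 in edgeR and 0.0212 with the block). *Xylt1*, which starts the chain, was at 10.7 ± 1.64 and 6.55 ± 2.20 CPM, and the dermatan sulfotransferase gene *Chst14* at 43.3 ± 7.90 and 54.2 ± 4.10 CPM. The whole list summed to 991 to 999 CPM in control and to 919 to 981 CPM in cKO libraries.

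For keratan sulfate, 4 of 7 genes tested were higher and 3 lower, with a median log2 ratio of 0.07. The sulfotransferase gene *Chst2* was at 13.6 ± 5.25 and 32.9 ± 10.5 CPM, a log2 ratio of 1.28 (SE 0.34, adjusted p = 0.0918 in edgeR and 0.0274 with the block). It passed the criterion in DESeq2 (adjusted p = 0.00697) and with the block, where 5.05% and 4.16% of all genes passed as higher. *Chst1*, which sulfates galactose, was at 45.6 ± 31.3 and 26.4 ± 5.67 CPM, and the galactosyltransferase gene *B4galt1* at 117 ± 17.2 and 107 ± 20.1 CPM, both with overlap.

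Of 14 receptors and ligands that bind the family, 8 were higher and 6 lower, with a median log2 ratio of 0.19. *Tlr2* and *Tlr4*, the innate receptors that soluble biglycan activates, were at 5.18 ± 1.21 and 1.55 ± 0.351 CPM in controls. In cKO embryos they were at 9.49 ± 1.33 and 5.35 ± 4.20 CPM (adjusted p = 0.109 and 0.127 in edgeR). *Tlr4* was at 10.2, 3.08 and 2.77 CPM in cKO replicates 1, 2 and 3. Neither gene's groups overlapped, where 14.5% of all genes had groups without overlap and higher. *Tlr2*, *Tlr4* and *Itga2* are the genes of lowest p in the list. *Itga2*, the alpha chain of a collagen receptor, was lower in all cKO libraries, at 218 ± 26.8 and 91.0 ± 32.7 CPM, a log2 ratio of −1.26 (SE 0.25, adjusted p = 0.0656 in edgeR and 0.0265 with the block).

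In the list of collagen crosslinking enzymes, 5 of 8 genes were higher, and the median log2 ratio was 0.32. The lysyl oxidase gene *Loxl1* was at 10.7 ± 2.78 and 48.8 ± 33.7 CPM, a log2 ratio of 2.19 (SE 0.50, adjusted p = 0.0761 in edgeR and 0.0186 with the block). Its relative *Loxl4* was at 21.6 ± 15.3 and 4.45 ± 3.23 CPM and the lysyl hydroxylase gene *Plod2* at 507 ± 341 and 178 ± 22.6 CPM, each with overlap between the groups. Their log2 ratios were −2.28 (SE 0.80) and −1.51 (SE 0.50), and both passed the criterion in DESeq2 as lower (adjusted p = 0.0157 and 0.0136) but not in edgeR without the block (0.146 and 0.133) or with it (0.0854 and 0.110).

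The genes outside the family whose log2 CPM most closely followed the mean standardized level of the 8 members over the 6 libraries were *Tnfsf12*, *Nrbp1*, *Batf*, *Gm4788* and *Pde4a*. Pearson's r was 0.995, 0.994, 0.992, 0.992 and 0.992 in this order, a description over the same 6 libraries on which all values rest. These genes were picked for the highest r among the 14131 genes tested, without the members, so the height of r is no result in itself. *Batf* and *Gm4788* were low, with means of 1.37 and 0.699 CPM in controls and 3.42 and 1.68 CPM in cKO embryos. The log2 ratio of *Nrbp1* was 0.22.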

How the data were processed

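RNA-seq values of 6 IEE libraries, 3 per genotype, were read from 1 table of 18152 genes. The submitters' notes name BWA 0.7.12, Picard 2.6.0 and StringTie, and the genome build and counting settings are not given in the sources used here. The deposited estimated counts are unnormalised and were rounded (10.9% to 11.5% per library were not whole). The deposited TPM values are scaled by the authors for length to an equal total, and the deposited FPKM values and the authors' averages per group were not used.

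Members and gene lists were chosen with earlier results of these data known. In R 4.3.3, edgeR 4.0.16 was used with filterByExpr, TMM factors and robust quasi-likelihood fits, with two-sided F-tests and Benjamini-Hochberg adjustment over 14131 genes. Pair differences used log2 CPM with a prior count of 2. The procedure was tested on simulated counts. Alternatives were DESeq2 1.42.0, limma 3.58.1 on TPM, other scalings and filters, and omission of each library. Named genes were the members, *Kdf1*, from each related list those past the criterion or the 3 of lowest p, from the marker lists up to 3 of those of highest CPM, and the 5 most correlated genes. *Dpt*, *Mfap5*, *Tbx18*, *Pi16*, *Meox2*, *Kera*, *Cenpp*, *Cdh1*, *Twist1*, *Dmp1*, *Nes*, *Runx2*, *Col1a1*, *Col1a2*, *Col3a1*, *Col5a2*, *Col6a3* and *Col14a1* were named after their values were seen. A count of 0 allows 3 counts, 0.182 to 0.198 CPM, which covers counting error only.

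Same-numbered libraries correlated in their deviations from the group means at 0.135, 0.324 and 0.499 across genes, and the numbers were read as pairs from the data, not from the labels. Control replicate 2 and cKO replicate 1 correlated at 0.144, above the pair numbered 1, and the other pairings were below 0. The labels number the samples as biological replicates and do not name the animals. Replicates were compared by chi-square, which was 36.0 to 76.7 per degree of freedom within groups, so no library was a copy of another.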

Additional observations from a re-analysis of the deposited data

How the results depend on the processing

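The number of members past the criterion was 0 with TMM scaling in edgeR and 2 with DESeq2, with the replicate block and without replicate 3 of the cKO group, so that it ranged from 0 to 2 over the fits that left out 1 library. It was 0 with each other scaling, each other filter and limma. Related genes past it numbered 0, against 15 in DESeq2 and 11 with the block, and 0 to 5 with 1 library left out, 5 of them without replicate 3 of the cKO group. Over all genes the count was 61 (20 higher, 41 lower). It was 980 in DESeq2, 860 with the replicate block, 103 without the filter (36 higher, 67 lower), 16 with limma on log2(TPM + 1), 9 with library size alone (2 higher, 7 lower), 7 in edgeR on size factors from DESeq2 (1 higher, 6 lower), 6 with at least 10 counts in every library (1 higher, 5 lower), and 1 to 465 with 1 library left out (465 without replicate 3 of the cKO group, 16 without replicate 2 of the controls). The median log2 ratio of the family was 0.51 to 1.55 with 1 library left out. That of *Dcn* turned from −0.05 to 0.26 with the block, 0.32 with limma on log2(TPM + 1) and on log2(TPM + 0.1), and ran from −0.49 to 0.65 with 1 library left out, 0.65 without replicate 2 of the controls and 0.14 without replicate 1 of the cKO group. The cause was not tested. The other 7 members kept their sign in all 15 alternatives. The block changed the call of no member but *Ogn* and *Lum*. Fold changes on log2(TPM + 1) understate those of low genes, and the 24 to 64 counts of *Prelp* limit its precision.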
